A study of Arabidopsis thaliana with 20 samples.

Results

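The plastid gene psbA, listed as ATCG00020, was the gene with the most reads in every library, and its counts are described here in depth. It was chosen by its identifier, as 1 of 133 chloroplast genes and 1 of 32744 genes in all. The libraries were made from total RNA of rosettes of wild type Arabidopsis thaliana, the Col-0 accession, depleted of ribosomal RNA. Plants were grown in soil for 8 days and then kept for 19 days on the Phenoscope, an automated phenotyping platform, at 60% soil water, 21°C by day and 19°C by night under 15000 lux. The labels name 10 N-limiting libraries, from plants given 2.5 mM nitrate, and 10 N-sufficient libraries, from plants given 5 mM. In each of the 10 numbered pairs, all 32744 counts were equal under both labels, so the counts stand for 10 libraries of 1 nitrogen supply, the limiting one that the paper describes. No comparison between the supplies could be made. Nothing in the labels says how many plants entered a library, and p-values below measure the spread between these libraries only.

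psbA encodes D1, a core subunit of photosystem II, the complex that splits water and starts photosynthetic electron transport. D1 binds cofactors of charge separation together with the related subunit D2, and it is damaged in the light more often than the other subunits. Chloroplasts replace it through a repair cycle, in which proteases of the FtsH and Deg families degrade the damaged protein and a new D1 is made on ribosomes at the thylakoid membrane. Leaf chloroplasts keep a large and stable pool of psbA mRNA for this, and D1 synthesis is known for control at translation. The gene is transcribed by the plastid-encoded polymerase, a bacterial type of enzyme that finds promoters with sigma factors made in the nucleus.

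In the RefSeq plastid genome of TAIR10.1, psbA lies on the minus strand at Pltd:383-1444, as a single stretch of 1062 bases with a GC content of 41.2%. Its nearest annotated neighbours are trnH, which ends at position 76, and trnK, which starts at position 1717. The promoter of psbA is known for a pair of hexamers like those of bacterial promoters, TTGACA and TATACT. They are shown because promoters of this type are the kind that sigma factors are known to recognise, and the hexamers are in capitals. They lie at Pltd:1530-1559 on the minus strand, 86 to 115 bases before the start codon, with a spacer of 18 bases.
psbA promoter hexamers: TTGACAtggctatataagtcatgtTATACT
The pair was searched letter for letter on the coding strand only, with a spacer of 16 to 19 bases, in windows of 250 bases. It was found before 1 of 131 plastid genes (0.763%), and that gene was psbA. Because the letters searched are those of psbA itself, its own match was given in advance. Promoters of this type with other letters were not counted, so the search does not show how common the type is. TTGACA alone was found in 16 of these windows (12.2%). A match is a description of these letters, not a measured site.

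Part of psbA is repeated elsewhere in the genome, which bears on whether its reads could be placed. Bases 547 to 1051 of the gene match the mitochondrial genome at MT:99273-99767 and chromosome 2 at 2:3331578-3332072, each over an alignment of 506 bases with 95.3% identity. A match of 95 bases on chromosome 3 and another of 75 bases on chromosome 5 were 88.4% and 80% identical. No annotated gene overlapped the copies on chromosomes 2, 3 and 5. The mitochondrial copy overlaps an annotated non-coding RNA. Organellar identifiers of the annotation could not be matched to those of the counts. Whether a counted mitochondrial gene shares reads with psbA was therefore not tested. The longest exact run that psbA shares with a copy has 82 bases, from base 791 to base 872, and is shown in capitals with 6 bases on each side, from Pltd:567-660, 2:3331751-3331844 and MT:99501-99594.
psbA: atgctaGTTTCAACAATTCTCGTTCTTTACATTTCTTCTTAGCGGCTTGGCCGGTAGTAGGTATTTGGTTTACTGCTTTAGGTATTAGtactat
copy on chromosome 2: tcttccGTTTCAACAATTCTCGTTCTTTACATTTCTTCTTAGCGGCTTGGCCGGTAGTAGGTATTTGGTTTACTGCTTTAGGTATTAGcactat
copy in the mitochondrial genome: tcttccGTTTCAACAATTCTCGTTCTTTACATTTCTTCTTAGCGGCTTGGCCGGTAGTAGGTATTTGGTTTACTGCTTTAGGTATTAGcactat
A read inside this run fits all 3 places equally well. Of the stretches of psbA with 50 bases, 7.70% occur elsewhere in the genome, against 1.01% of those with 75 bases and 0% of those with 100. The read length and the options for reads with several alignments are not given in the sources used here.

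Counts of psbA lay between 15602789 in replicate 1 and 21417229 in replicate 10, with a median of 18.2 M, while total counts ran from 41.4 M to 60.3 M. psbA held 37.1% of all counts in replicate 1, 38.5% in replicate 2, 44.8% in replicate 3, 39.8% in replicate 4, 40.6% in replicate 5, 42.5% in replicate 6, 39.8% in replicate 7, 40.5% in replicate 8, 40.4% in replicate 9 and 35.5% in replicate 10. Replicate 3 was the highest library and replicate 10, the deepest, the lowest. The mean share was 40.0% ± 2.62 (SD, n = 10). The Wilson 95% interval of a single share reached at most 0.0151 percentage points to either side, so that counting error is far smaller than the spread between libraries; such intervals cover counting error only. Of the counts on chloroplast genes, psbA held 58.4% ± 2.32 (SD, n = 10), from 53.4% in replicate 10 to 62.0% in replicate 3. Over these 10 libraries the coefficient of variation was 6.55% for the share of all counts and 3.96% for the share of chloroplast counts.

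**Figure D1:**
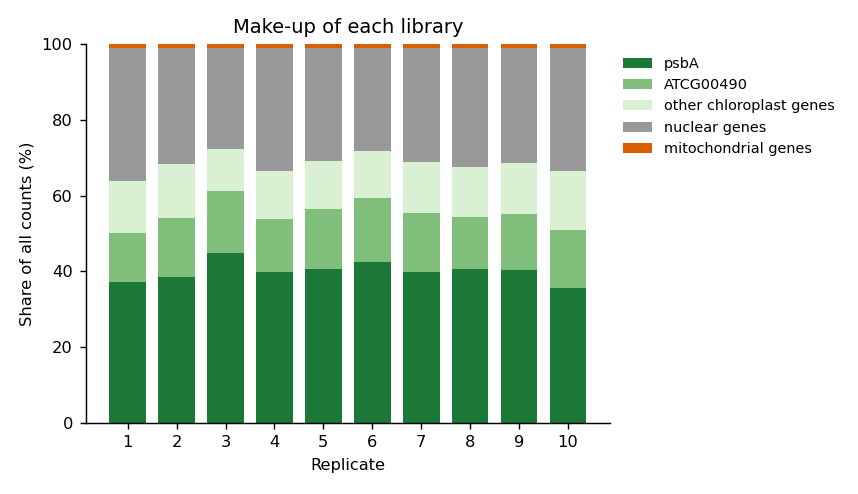
Share of all counts (%, vertical axis) held by psbA, ATCG00490, the other chloroplast genes, nuclear genes and mitochondrial genes in each of the 10 replicates (horizontal axis), as stacked bars. psbA, at the base of each bar, ranges from 35.5% in replicate 10 to 44.8% in replicate 3.

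The gene with the next highest count was ATCG00490 in every library. The tables used here do not pair the chloroplast identifiers with names, so apart from psbA they are given as identifiers. psbA had 2.66 ± 0.203 counts for each count of ATCG00490 (SD, n = 10), from 2.31 in replicate 10 to 2.94 in replicate 8. Together both genes held 80.5% ± 2.24 of the chloroplast counts (SD, n = 10), from 76.5% in replicate 10 to 84.7% in replicate 3. The following genes were ATCG00680, ATCG00280, ATCG00340 and ATCG00350, which held 2.13%, 1.76%, 1.38% and 1.34% of the chloroplast counts on average. These are counts per gene, not per base, and the lengths of these genes are not paired with the identifiers. At their mean counts, ATCG00490 would have to be shorter than 403 bases, and ATCG00680 shorter than 39.1, to exceed psbA in counts per base.

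psbA was also set against the nuclear counts of the same library. There were 1.32 ± 0.191 psbA counts for each nuclear count (SD, n = 10), with the lowest value, 1.06, in replicate 1 and the highest, 1.69, in replicate 3. In every library this single plastid gene had more counts than all 32548 nuclear genes together. In bulk RNA, more plastids or chloroplast-rich cells and more psbA RNA per plastid cannot be told apart. The 5 markers of rosette leaves in the table, among them abundant genes of photosynthesis, had summed counts of 719739 to 1191155 per library. The 5 root markers summed to at most 2 counts and the 5 flower and seed markers to between 3 and 7, with 3 and 1 of them at 0 in all libraries.

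Relative to the other chloroplast genes, psbA varied more than its share did. Levels were obtained by dividing its counts by size factors computed from all chloroplast genes other than psbA. The normalized count was lowest in replicate 10, at 14.4 M, had a median of 17.8 M, and was highest in replicate 3, at 24.4 M. The coefficient of variation was 15.3% ± 4.51 (jackknife standard error, n = 10), and 1.69-fold separated the extreme libraries. Of 128 chloroplast genes averaging 100 counts or more, 57 varied more and the median coefficient of variation was 14.4%, which places psbA in the middle of the chloroplast genes. Scaled by TMM factors of all genes, the level lay between 13.5 M in replicate 1 and 25.3 M in replicate 3, with a coefficient of variation of 18.9%. Scaled by total counts, of which psbA itself is a large part, the coefficient was 6.55% and 119 of the 128 genes varied more. Replicate 3 was highest under each of the 7 scalings computed. The lowest library was replicate 10 under the chloroplast scalings and total counts, and replicate 1 under the scalings by all genes or by nuclear genes.

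**Figure D2:**
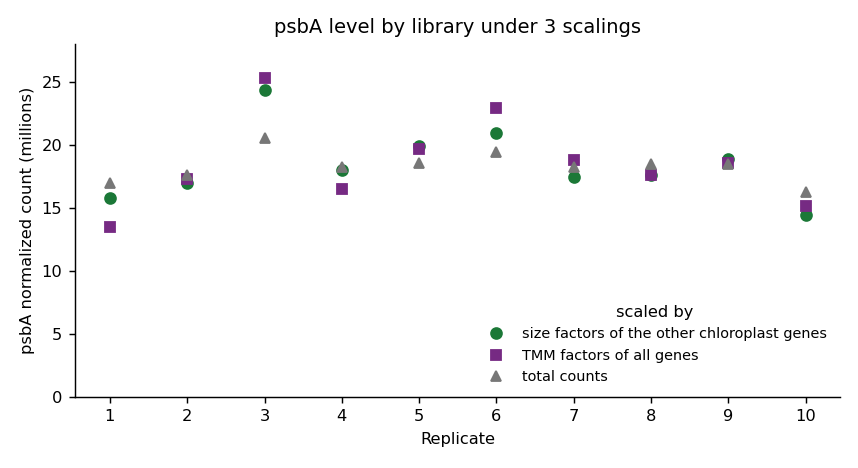
psbA normalized count in M (vertical axis, from 0) in each replicate (horizontal axis), scaled by the size factors of the other chloroplast genes (circles), by TMM factors of all genes (squares) or by total counts (triangles). Replicate 3 is highest under all 3 scalings, at 24.4 M, 25.3 M and 20.5 M, and the triangles spread least.

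Chloroplast genes fell on both sides of psbA. The likeness of a gene to psbA was measured as Pearson's r between log2 normalized counts over the 10 libraries, both divided by the same size factors. It is given as a description, without a p-value. Of the 127 other chloroplast genes averaging 100 counts or more, 62 had a positive r and 65 a negative one, with a median of -0.04. The r was above 0.8 for 21 genes and below -0.8 for 23. Some identifiers are pairs with equal or nearly equal counts, such as ATCG00850 and ATCG01290, so separate patterns are fewer than the genes counted. These size factors hold the median chloroplast gene level, which by construction keeps the median r near 0. With TMM factors of all genes, 75 genes were positive, 30 were above 0.8 and 0 below -0.8, with a median of 0.31. With total counts, 34 were positive and 44 were below -0.8, with a median of -0.63. The genes at both ends were chosen for their r in the same libraries, so their signs under other settings are a description and no sign of stability. All 21 genes above 0.8 stayed positive with TMM factors of all genes and all 23 below -0.8 stayed negative, with a median r of 0.92 and -0.60. With total counts, 18 of the 21 stayed positive and all 23 stayed negative. Without replicates 3 and 10 all 21 and all 23 kept their sign, with a median r of 0.82 and -0.80. The mean absolute r of psbA with the other chloroplast genes was 0.615, the fifth highest of 128 genes, whose median was 0.505.

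**Figure D3:**
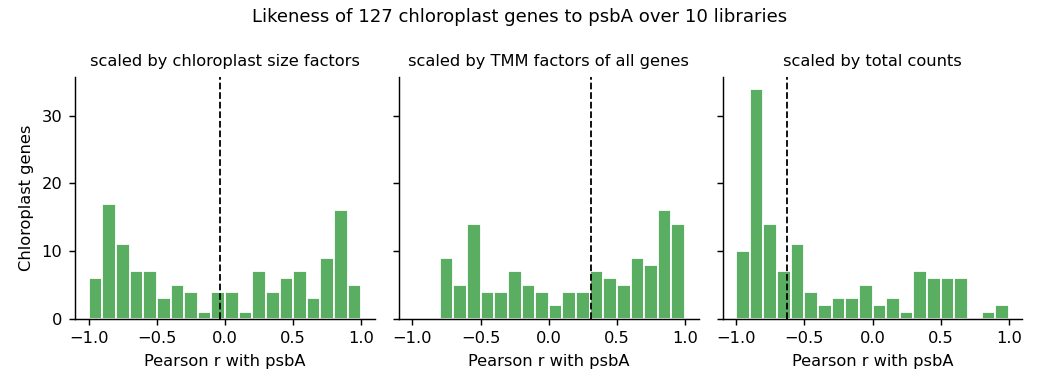
Number of chloroplast genes (vertical axis) by their Pearson r with psbA over 10 libraries (horizontal axis), for 127 genes scaled by chloroplast size factors, TMM factors of all genes or total counts. The dashed line is the median, at -0.04, 0.31 and -0.63, and in the first panel the genes gather at both ends.

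The gene most like psbA was ATCG00990, with an r of 0.97 and a Spearman rho of 0.94. Its counts equal those of ATCG01140 in every library, so these identifiers are 1 measurement. The normalized count of ATCG00990 was lowest in replicate 10, at 3031, had a median of 3998 and was highest in replicate 3, at 5484, the same extreme libraries as psbA. ATCG00410 followed with an r of 0.97, from 5738 in replicate 10 to 10161 in replicate 3. ATCG00100 had an r of 0.95, ATCG00550 of 0.90 and ATCG00250 of 0.88. The fold between the extreme libraries was 1.81 for ATCG00990, 1.55 for ATCG00100 and 1.49 for ATCG00550, against 1.69 for psbA. Without replicates 3 and 10 the r of these 5 genes lay between 0.82 and 0.93.

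The gene least like psbA was ATCG00530, with an r of -0.95. Its normalized count was lowest in replicate 3, at 15052, had a median of 29006 and was highest in replicate 10, at 37627. It therefore mirrored psbA at both extreme libraries. ATCG01100, ATCG01090 and ATCG00520 each had an r of -0.94 and ATCG00760 had -0.93. Replicate 3 was the lowest library for all 5 of these genes, and replicate 10 was the highest for 4 of them, with replicate 1 highest for ATCG00760. ATCG01090 had the widest range of the 5, from 3961 in replicate 3 to 12786 in replicate 10, or 3.23-fold. Without replicates 3 and 10 the r of the 5 genes lay between -0.92 and -0.90. With TMM factors of all genes it lay between -0.76 and -0.65.

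**Figure D4:**
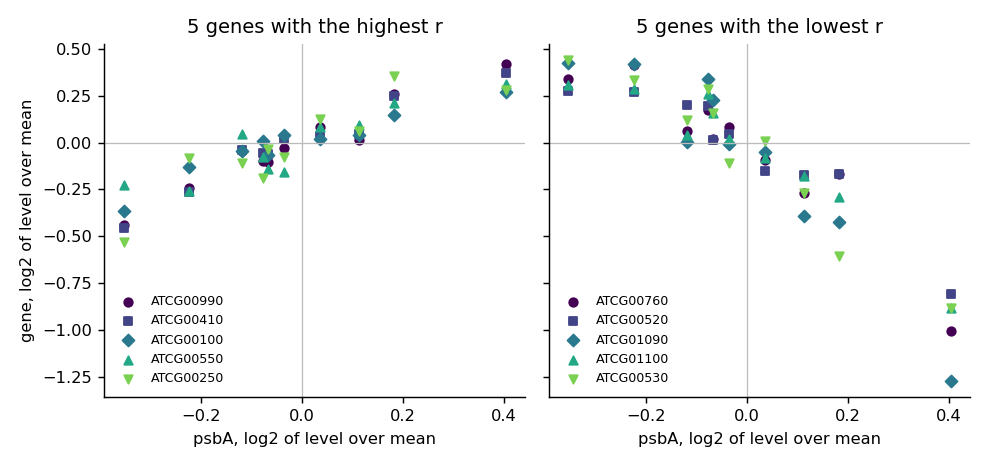
Level of the 5 chloroplast genes most like psbA (left) and the 5 least like it (right) in each of the 10 libraries, as log2 of the normalized count over the gene's mean (vertical axis), against the same quantity for psbA (horizontal axis). The point farthest to the right in each series is replicate 3 and the one farthest to the left is replicate 10.

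The other abundant chloroplast genes did not follow psbA alike. ATCG00490 had an r of 0.87 with psbA, and 0.87 again without replicates 3 and 10, and its normalized count ran from 5508180 in replicate 1 to 8920790 in replicate 3. ATCG00680 had an r of 0.74 and ATCG00280 of 0.41. ATCG00340 and ATCG00350 had an r of -0.75 and -0.72, which moved to -0.39 and -0.36 without replicates 3 and 10. Both were lowest in replicate 3, where psbA was highest.

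Slopes of gene level on psbA level were then fitted across all genes, to find which change with psbA beyond the spread between libraries. A slope is the change in log2 level of a gene for each log2 unit of psbA, and edgeR's quasi-likelihood test with Benjamini-Hochberg adjustment was applied to the 18441 genes other than psbA that averaged 10 counts or more. At an adjusted p under 0.05, 56 genes (0.304%) had a positive and 93 (0.504%) a negative slope, and 3816 genes had an unadjusted p under 0.05. The number of calls depended on single libraries. It was 0 without replicate 3, where 1399 genes had an unadjusted p under 0.05, and 0 without replicate 5, where 3620 did. There were 1 without replicate 10, 2 each without replicates 1 and 4, 4 without replicate 8, 65 without replicate 6 and 371 without replicate 2. The slopes of all 149 genes kept their sign without replicate 5, and all 145 compared did without replicate 3. These genes were chosen in the same libraries, so the kept signs are a description. DESeq2's Wald test called 1096 genes, 147 of the 149 among them.

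Of the 130 chloroplast genes tested, 59 had an unadjusted p under 0.05, against 20.7% of all genes. Past the threshold, 7 had a positive slope and 4 a negative one, together 8.46% against 0.808% of all genes. The positive ones were ATCG00250, ATCG00410, ATCG00620, the pair ATCG00850 and ATCG01290 and the pair ATCG00990 and ATCG01140, each pair with equal counts. Their slopes lay between 0.97 for ATCG00620 and 1.28 for ATCG00990. The negative ones were ATCG00530, ATCG00740, ATCG00760 and ATCG01090, with slopes from -2.07 for ATCG01090 to -1.51 for ATCG00740. Fitted among chloroplast genes alone with chloroplast size factors, 29 of 130 genes (22.3%) were positive and 35 (26.9%) negative. The same size factors scale psbA and the genes there, which by construction keeps the median slope near 0. No library was left out of that fit. Leaving out replicate 1, 3, 4, 5, 8 or 10 left none of the calls among chloroplast genes in the fit over all genes. Among 56 mitochondrial genes, 4 (7.14%) had a positive slope past the threshold, against 0.304% of all genes, and none a negative one. They were ATMG00160.1, ATMG00480.1, ATMG01080.1 and ATMG00665.1, with slopes of 1.03, 1.12, 1.16 and 1.74. An unadjusted p under 0.05 by edgeR was found for 39, against 20.7% of all genes. DESeq2's Wald test called 24 positive (42.9%) and 0 negative, against 5.94% of all genes in either direction.

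The 5 nuclear genes with the smallest p for a negative slope are described next, and 2 of them, LNK1 and CCA1, are known from the circadian clock, for which no list was tested. The smallest p belonged to AT5G64170, which RefSeq lists as LNK1, night light-inducible and clock-regulated 1, a clock protein active in the morning. Its log2 CPM was lowest in replicate 3, at 4.16, had a median of 5.06 and was highest in replicate 10, at 5.60, opposite to psbA. The slope was -1.75 ± 0.20 (SE from the F statistic, n = 10), with an adjusted p of 0.0174 by edgeR. CCA1, a MYB-related transcription factor at the core of the clock that peaks around dawn, had a log2 CPM between 2.98 in replicate 3 and 4.67 in replicate 10, and a slope of -1.85 ± 0.25 and an adjusted p of 0.0312 by edgeR. The labels give no time of harvest per library, and whether harvest time moved with psbA was not tested. The other 3 were AT1G65190, a protein kinase (-1.54), AT1G58602, an LRR and NB-ARC protein of the disease resistance type (-1.27), and CIP4, a protein that interacts with the light signalling regulator COP1 (-1.53). Parts of these 3 match other places in the genome with at least 95% identity. The longest match covered 6.12%, 1.31% and 4.41% of the gene, and LNK1 and CCA1 had no such match. All 5 were lowest in replicate 3 and highest in replicate 10, the extreme libraries of the psbA level by which they were chosen. Over the 16 alternatives the slope of LNK1 ran from -4.74 to -1.23 and that of CCA1 from -5.99 to -0.87. The adjusted p of LNK1 ran from 1.19e-13 by DESeq2's Wald test to 0.686 by edgeR. Both steepest slopes came with psbA as a share of chloroplast counts, and they are per log2 unit of that share. The other alternatives ran from -1.81 to -1.23 for LNK1 and from -1.96 to -0.87 for CCA1.

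Of the 5 nuclear genes with the smallest p for a positive slope, 2 share sequence with other RNAs. AT2G07719, annotated as a putative membrane lipoprotein at 2:3432137-3433656, had a slope of 1.19 ± 0.18 and an adjusted p of 0.0384 by edgeR. Its whole length of 1520 bases is 100% identical to the mitochondrial genome at MT:200065-201584, so its reads and mitochondrial reads cannot be told apart. AT3G06325, a long non-coding RNA with a slope of 1.49, matches 7 other places in the genome with at least 95% identity and overlaps AT3G41762 in antisense. The other 3 had no such match elsewhere. They were AT5G11000, a protein of unknown function (1.06), AT3G57785, annotated as a subunit of the mitochondrial respiratory complex I (1.11), and AT3G08030 (1.28). All 5 were highest in replicate 3 and lowest in replicate 10, again the extreme libraries of the psbA level used to choose them.

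Nuclear genes of psbA expression and of photosystem II were described as lists, beside a median slope of -0.01 and 49.6% positive slopes over all 18441 genes. In the list of plastid transcription, 2 of 19 genes passed edgeR's test, both with a negative slope, and 9 had an unadjusted p under 0.05, against 20.7% of all genes. With single libraries left out, 3 passed without replicate 2, 1 without replicate 7 and 0 without any of the others, and DESeq2's Wald test called 6, against 5.94% of all genes. SIG2, a sigma factor of the plastid-encoded polymerase, had a slope of -1.19 ± 0.24 with an adjusted p of 0.0473 by edgeR. PTAC12, a protein associated with that polymerase and also known in phytochrome signalling, had -1.09 ± 0.23 with 0.04995, at the threshold. Over the 16 alternatives SIG2 passed in 5 and PTAC12 in 4, and each stayed negative in all. SIGE, the sigma factor SIG5 that is induced by blue light and stress and known to act on the psbD promoter, had a slope of -1.08 ± 0.27 and an adjusted p of 0.065 by edgeR. SIGA, or SIG1, had -0.47 ± 0.32 with 0.422, and SIG4, SIGC and SIGF had -0.76, -0.65 and -0.65. In the whole list 3 of 19 slopes were positive, with TRX z highest at 0.97, and the median was -0.47; without replicates 3 and 10, 10 of 19 were positive and the median was 0.06.

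Photosystem II subunits and antenna proteins made in the nucleus had positive slopes. All 14 subunits had a positive slope and a median of 0.52, but 0 passed edgeR's test and 4 had an unadjusted p under 0.05, a share not far from the 20.7% of all genes. PSBX, a small subunit, was highest at 0.92 ± 0.32 and PSBQ-2, of the oxygen-evolving complex, lowest at 0.25 ± 0.25. All 13 antenna genes of the LHCB group were positive with a median of 0.84, with 0 past edgeR's test and 11 at an unadjusted p under 0.05. CAB1 was highest at 1.03 ± 0.38 and LHCB5 lowest at 0.53 ± 0.31. CAB1, CAB2 and CAB3 are near-identical copies whose reads may be split between them. With psbA scaled by TMM factors of all other genes, 12 of 13 antenna genes and 6 of 14 subunits passed, in a fit that called 11.4% of all genes. DESeq2's Wald test called 3 antenna genes and 0 subunits. All 13 and all 14 stayed positive when any single library was left out. These signs are not independent of each other. All 13 antenna genes and most subunits were lowest in replicate 1, and most antenna genes were highest in replicate 3. With psbA as a share of chloroplast counts, all 13 antenna genes and 9 of 14 subunits were positive, with 0 past edgeR's test. Their medians of 0.99 and 0.21 are per log2 unit of that share, so their sizes cannot be set beside the others.

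For the proteins that act on psbA mRNA or on D1, no gene passed edgeR's test. Of 14 genes of psbA translation, D1 insertion and assembly, 8 had a positive slope and the median was 0.04. In this list 0 passed edgeR's test and 2 had an unadjusted p under 0.05, a share not far from the 20.7% of all genes. HCF173, which binds psbA mRNA and activates its translation, had a slope of -0.07 ± 0.19, and HCF244, its partner, 0.15 ± 0.20. AT1G54500 was highest at 0.71 and ALB3, the insertase of thylakoid proteins, lowest at -0.63. Of 10 genes of D1 turnover, 3 were positive, the median was -0.13, and 1 had an unadjusted p under 0.05, beside 20.7% of all genes. That gene was STN8, the kinase that phosphorylates D1 and other core subunits, at 0.93 ± 0.27 with an adjusted p of 0.0946 by edgeR and 0.0428 by DESeq2, while the protease FTSH8 was lowest at -0.53. Of 14 genes of chloroplast RNA binding and decay, 4 were positive and the median was -0.26. Here 0 passed edgeR's test and 2 had an unadjusted p under 0.05, beside the same 20.7% of all genes. The RNA-binding protein CP29 was highest at 1.01 ± 0.40 and AT3G23700 lowest at -0.87. With psbA scaled by TMM factors of all other genes, 1, 1 and 2 genes of these lists passed, in a fit that called 11.4% of all genes. DESeq2's Wald test called 0, 1 and 0, against 5.94% of all genes. The medians of these 3 lists lay near 0 and were not stable: without replicates 3 and 10 they were 0.32, 0.07 and 0.10. With psbA as a share of chloroplast counts they were -0.78, -1.14 and -0.75, per log2 unit of that share. The share spanned 1.16-fold between libraries, against 1.69-fold for the level, so the sizes of these slopes cannot be set beside the others.

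**Figure D5:**
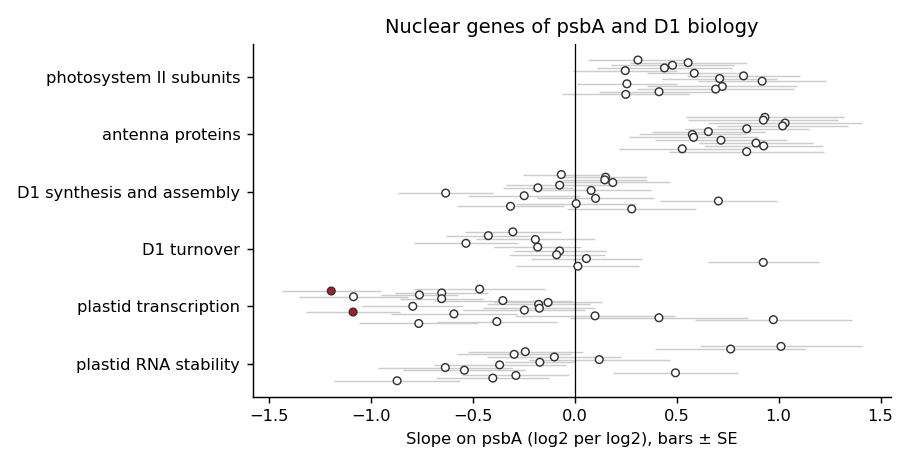
Slope on psbA (horizontal axis, log2 level of the gene per log2 unit of psbA, with bars of 1 SE) for the nuclear genes of 6 lists (rows), 1 point per gene. The 2 filled points, in the row of plastid transcription, are SIG2 at -1.19 and PTAC12 at -1.09, and all points of the first 2 rows lie above 0.

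Last, the psbA level was related to the make-up of the libraries in 4 relations, by permutation tests with 100000 resamples, two-sided and adjusted over the 4. The level scaled by chloroplast size factors rose with the ratio of mitochondrial to nuclear counts, with a Pearson r of 0.80 (permutation p = 0.00466, adjusted 0.0186, n = 10) and a Spearman rho of 0.75 (permutation p = 0.0178, adjusted 0.071). That ratio was lowest in replicate 1, at 2.99%, and highest in replicate 3, at 4.13%. Without replicates 3 and 10, the farthest from the median of psbA, r was 0.67 (permutation p = 0.0666). The level fell with the total count of the other genes, with r = -0.73 (permutation p = 0.0214, adjusted 0.0429) and rho = -0.61 (permutation p = 0.0678, adjusted 0.136). This relation rests on replicates 3 and 10, since r was -0.13 without them (permutation p = 0.766), and depth enters the size factors as well. With the ratio of other chloroplast counts to nuclear counts r was 0.55 (permutation p = 0.102, adjusted 0.136) and rho 0.48 (permutation p = 0.166, adjusted 0.178), and without replicates 3 and 10 r was 0.72 (permutation p = 0.044, not adjusted). With the first principal component of nuclear genes, which held 39.3% of the variance of 18255 genes and was oriented so that replicate 1 scores negative, r was 0.49 (permutation p = 0.151, adjusted 0.151) and rho 0.47 (permutation p = 0.178, adjusted 0.178), and r was 0.44 without replicates 3 and 10 (permutation p = 0.269). Neither of these last relations passed the threshold over all 10 libraries. The labels give no batch or date that differs between the libraries, so no values within batches could be given.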

How the data were processed

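Per the labels, stranded total RNA libraries depleted of ribosomal RNA were aligned with STAR to TAIR10, and featureCounts is named for some samples. The authors deposited raw read counts per gene for each library, without normalization. The text describing the series gives fewer biological replicates than the 10 per group in the labels, which were used here. psbA, the lists and the tests were chosen with earlier results of these data known.

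Size factors came from DESeq2 1.42.0 (median of ratios) and TMM factors from edgeR 4.0.16, in R 4.3.3. The edgeR quasi-likelihood test was fitted to genes averaging 10 counts or more, with TMM factors of genes other than psbA and log2 psbA level as covariate. Levels of nuclear genes are log2 CPM with a prior count of 2. On simulated data with 18361 genes, 200 of them had a slope of 3 in either direction and averaged 100 counts or more. The test recovered 100% of these with 14 false calls. Genes were drawn independently with 1 dispersion of 0.026, and the named slopes were smaller than 3. The simulation therefore does not show how the test performs at the slopes and shared patterns of these data. Depth ran from 41.4 M to 60.3 M counts per library. Named are psbA, the 5 chloroplast genes next in count, the 5 with the highest and the 5 with the lowest r (averaging 100 counts or more, 1 of each set with equal counts), the 5 nuclear genes with the smallest p in each direction, and in each list the genes that passed and those with the highest and the lowest slope, with HCF173, HCF244, SIGA and SIGE always. SIG4, SIGC, SIGF, STN8, CAB2, CAB3 and the organellar genes past the threshold were named after their values were seen. Gene names, annotation and sequences are from RefSeq (TAIR10.1), which pairs no chloroplast identifier with a name; psbA copies were searched with blastn 2.17.0. Alternatives were other scalings, filters, psbA measures and tests, and each library left out.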

Additional observations from a re-analysis of the deposited data

Results flagged for a closer look

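Dixon's test was applied to the highest and the lowest library of 23 measures, and 2 of the 46 ends passed its 95% limit for 10 samples, where chance passes about 1 in 20 groups. No measure of psbA itself was among them. The total count of replicate 10 was 60.3 M, against 50.2 M in the next library, and the gap was 0.533 of the whole range. The normalized count of ATCG00520 in replicate 3 was 12443, against 19297 in the next lowest library, and the gap was 0.495 of the range. Replicate 3 also had the highest psbA level, and replicate 10 the lowest under the chloroplast scalings and total counts, whereas replicate 1 was lowest when scaled by all genes or nuclear genes.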

How the results depend on the processing

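No paired analysis was possible because the 2 labels of each number hold the same counts. The shares of psbA moved little, to 39.4% to 40.5% of all counts and 58.0% to 59.0% of chloroplast counts with single libraries left out. The coefficient of variation of psbA was 6.55% with total counts, where psbA is part of the total, and 11.2% to 16.2% with single libraries left out. The number of genes related to psbA, 149 in all and 11 in the chloroplast, was 2111 and 33 with psbA scaled by TMM of all other genes, 1096 and 41 with DESeq2's Wald test, and 0 and 0 with psbA as a share of chloroplast counts (1893 genes at an unadjusted p under 0.05), where the cause was not tested. It was 90 in all with every gene with at least 1 count tested, where more genes are tested by construction, and 64 in the chloroplast for chloroplast genes alone with chloroplast size factors, where both the genes tested and the scaling differ. Without replicates 3 and 10, an alternative chosen after seeing the data, it was 0 and 0, with 1269 genes at an unadjusted p under 0.05 by edgeR. With single libraries left out it ran from 0 to 371 in all and from 0 to 17 in the chloroplast. The r of psbA with the total count of other genes was -0.52 with nuclear TMM scaling of psbA and -0.61 as Spearman's rho, both short of the threshold, and ran from -0.82 to -0.60 with single libraries left out, short of it without replicate 3, 4, 5, 6, 7 or 10. That with mitochondrial to nuclear counts was 0.75 as Spearman's rho, short of the threshold, and ran from 0.70 (without replicate 3, short of it) to 0.84. With nuclear TMM scaling, r with other chloroplast to nuclear counts rose to 0.80 and with the nuclear principal component to 0.70, both past the threshold, and nuclear counts enter both sides there. These ran from 0.43 to 0.72 and from 0.28 to 0.60 with single libraries left out. Slopes that reversed were never past the threshold in either fit. HCF173 turned to 0.0087 (psbA scaled by TMM of all other genes), 0.14 (without replicate 10) and 0.34 (without replicates 3 and 10), with -0.14 to 0.14 over single libraries left out, HCF244 to -0.13 and PSBQ-2 to -0.0098 (psbA as a share of chloroplast counts), and SIGA to 0.23 (without replicates 3 and 10). The causes of these shifts were not tested. Depth does not limit the psbA values, whose counting error is far below the spread between libraries.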
